A study of Homo sapiens with 30 samples.

Results

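QKI knockout was examined at day 4 (D4) of differentiation towards cardiomyocytes, the stage at which cardiac progenitors form. The comparison uses 6 of the study's 30 samples, chosen by their labelled day and genotype: 3 QKI knockout (KO) libraries and 3 wild-type (WT) libraries of poly(A) RNA from whole cells. It covers the 39126 genes of the authors' count table and the 69923 skipped-exon events of the authors' D4 splicing table. Both genotypes are Hues6, an established human embryonic stem cell line. For the first 24 hours KO cells received 1.25 uM CHIR and WT cells 1.5 uM CHIR, each with 1.5 ng/mL BMP4; the doses had been set by screening each genotype for efficient differentiation. CHIR inhibits the kinase GSK3 and thereby activates WNT signalling. Later, cells of both genotypes had 100 nM C59, which blocks the secretion of WNT proteins, for the 48 hours up to collection. CHIR dose and genotype cannot be told apart in any D4 difference given here. Whether the KO line is 1 clone, and whether the 3 libraries of a genotype came from separate cultures, is not stated in the labels, so p-values measure the spread between these samples only.

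QKI is an RNA-binding protein of the STAR family that recognises the letters ACUAAC and close variants in RNA, written ACTAAC in DNA letters. Bound near an exon, it can promote or block the use of that exon in the spliced transcript, and it also acts on RNA stability, transport and translation. In heart, skeletal and smooth muscle it is known for controlling exons of contractile and cytoskeletal genes, and mouse embryos without it die with vascular defects of the yolk sac. Cardiac progenitors arise from mesoderm that passes through a WNT, NODAL and BMP driven primitive streak stage, next to the precursors of endothelium, blood and endoderm.

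QKI itself (ENSG00000112531.12) had 88.5, 68.2 and 77.98 CPM (read counts scaled to TMM-adjusted library totals) in KO libraries, against 144, 139 and 156 CPM in WT libraries. All 3 KO libraries lay below all 3 WT libraries, and the level fell in KO (edgeR quasi-likelihood test, log2 fold change -0.90, SE 0.09, adjusted p 1.6e-07). QKI transcripts were thus still counted in KO. In the authors' deposited table, QKI junction reads of KO stood at 17.1 to 55.1% of those of WT over 7 skipped-exon events, after scaling to the reads of each genotype. The KO libraries held 53030999, 47000951 and 42065821 counts, and the WT libraries 52561831, 47091219 and 40001076. Mitochondrially encoded genes took 10.7, 12.4 and 11.2% of the counts in KO and 18.9, 17.5 and 15.5% in WT, so this share was lower in every KO library.

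The first question was which exons were spliced differently. Inclusion is the share of junction reads that contain the exon, adjusted for length. An event was called where the authors' deposited table gave an FDR under 0.05, inclusion differed by 0.1 or more, and both genotypes averaged 10 or more junction reads per library. Of 58983 events with enough reads, 647 (1.10%) were called. KO included the exon more in 329 (0.558%) and skipped it more in 318 (0.539%). The 647 events cover 616 different exons of 493 genes. The 3 KO levels did not overlap the 3 WT levels in 553 of them, against 7.37% of all 58983 events and 1037 (1.76%) that also differed by 0.1 or more; the call uses the same levels, so this count is a description. In 44 called events the difference was at least 0.5. With limma on the logit of inclusion, 519 of the 647 events had an unadjusted p under 0.05, but only 72 events were called after adjustment over all 58983. Of the 61 exons named by rule, 44 were not called by limma. The 17 that were lie in LPHN2, MAP4K4, EHBP1, VPS29, MACF1 (18 nt), BIN1 (93 and 108 nt), EXOC1, TPM1 (76 nt), ACTN4, DST (2 exons), QKI, MARK3, COL25A1 (87 nt), CASK (36 nt) and DMXL2. The 108-nt BIN1 exon meant is the one with a difference of 0.399. Other exons of these genes, and all other exons below, rest on the authors' test.

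The largest gain in inclusion was in LPHN2, an adhesion receptor of the latrophilin family. The 4 exons below had large gains and are printed because each holds the letters that QKI recognises, which stand in capitals. They are written 5′ to 3′ on the transcript strand, with hg19 coordinates from the authors' table and letters from GENCODE 29 transcripts.
LPHN2 129 nt (chr1:82452585-82452713, plus strand): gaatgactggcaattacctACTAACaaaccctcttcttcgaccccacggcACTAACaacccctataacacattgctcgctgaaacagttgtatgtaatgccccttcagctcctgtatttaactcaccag
MAP4K4 162 nt (chr2:102477287-102477448, plus strand): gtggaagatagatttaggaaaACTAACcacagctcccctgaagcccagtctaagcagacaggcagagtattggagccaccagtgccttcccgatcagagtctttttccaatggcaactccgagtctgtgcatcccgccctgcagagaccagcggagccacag
EHBP1 108 nt (chr2:63215066-63215173, plus strand): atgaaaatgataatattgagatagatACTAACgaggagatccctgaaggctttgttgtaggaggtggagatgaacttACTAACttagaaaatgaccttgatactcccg
BIN1 93 nt (chr2:127825739-127825831, minus strand): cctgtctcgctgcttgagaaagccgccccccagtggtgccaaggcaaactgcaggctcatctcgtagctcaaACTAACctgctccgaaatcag

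Inclusion of the LPHN2 exon was 0.967, 0.973 and 0.975 in KO libraries, against 0.041, 0.042 and 0.041 in WT libraries (difference 0.930). The exon was thus nearly always present in KO and nearly always absent in WT. It holds ACTAAC 2 times. Of 1498 coding exons of 129 nt, 1 does so (0.0668%), and that 1 is the LPHN2 exon itself. The exon was printed for its match, so this count is a description. MAP4K4, a stress-activated kinase, had 0.815, 0.796 and 0.798 in KO and 0.185, 0.214 and 0.189 in WT (difference 0.607). EHBP1, which links endocytosis to actin, had 0.935, 0.957 and 0.964 in KO and 0.361, 0.399 and 0.429 in WT (difference 0.556). Its exon also holds ACTAAC 2 times. BIN1, which bends membranes and shapes the T-tubules of muscle, had 0.99, 0.99 and 1 in KO and 0.602, 0.627 and 0.591 in WT (difference 0.387), and the groups did not overlap for any of these 4 exons.

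Other exons among the 10 largest gains lay in genes of the cytoskeleton, of trafficking and of other kinds. A 24-nt exon of CLASP1, which stabilises microtubule ends, had 0.57, 0.623 and 0.756 in KO and 0, 0 and 0.07 in WT. A 12-nt exon of VPS29, a subunit of the retromer that recycles membrane proteins, had 0.74, 0.728 and 0.697 in KO and 0.173, 0.124 and 0.188 in WT. Both were short exons that most WT transcripts left out and most KO transcripts held. The transmembrane collagen COL25A1 changed at 2 exons in opposite directions: its 78-nt exon had 0.699, 0.961 and 0.761 in KO and 0.029, 0 and 0.047 in WT, while its 87-nt exon had 0.141, 0.118 and 0.067 in KO and 0.8, 0.789 and 0.811 in WT. The adaptor APBB2 (difference 0.599), the actin-binding AFAP1 (0.636), the Golgi scaffold AKAP9 (0.551) and C5orf45 (0.588) complete the 10. C5orf45 rested on means of only 11.7 junction reads per KO library and 18 per WT library. AFAP1 spread widely in KO, at 1, 0.625 and 0.75, yet still lay above WT at 0.25, 0.2 and 0.018.

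Among the exons that KO skipped more, the largest differences were in RALGAPA1, a regulator of Ral GTPases, and in the centrosome protein NIN. The 31-nt RALGAPA1 exon had 0.15, 0.013 and 0.071 in KO and 1, 0.961 and 1 in WT (difference -0.909). For the 2139-nt NIN exon the levels were 0, 0 and 0.176 in KO and 0.902, 1 and 1 in WT (difference -0.909), from a mean of only 10.7 junction reads per KO library. The SYNRG exon of 234 nt, in a partner of the AP1 sorting complex, had 0, 0.041 and 0.01 in KO and 0.855, 0.902 and 0.933 in WT (difference -0.880). WT thus held these 3 exons in nearly all transcripts and KO in few. The 45-nt exon of the unconventional myosin MYO18A had 0.048, 0.061 and 0.054 in KO and 0.968, 0.908 and 0.739 in WT, and the 63-nt exon of DMXL2, which regulates the vesicle proton pump, had 0.242, 0.133 and 0.256 in KO and 1, 1 and 1 in WT.

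Several of the exons skipped in KO were short. The 4 below are printed, exon in capitals with 15 nt of the neighbouring exons on each side in lower case, because their lengths are multiples of 3 nt and so add or remove whole codons.
CASK 36 nt (chrX:41414853-41414888, minus strand): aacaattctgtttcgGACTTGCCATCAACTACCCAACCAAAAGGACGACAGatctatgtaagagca
NUMB 33 nt (chr14:73783098-73783130, minus strand): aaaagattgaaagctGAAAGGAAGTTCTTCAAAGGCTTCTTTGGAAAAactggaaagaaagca
MARK3 27 nt (chr14:103964839-103964865, plus strand): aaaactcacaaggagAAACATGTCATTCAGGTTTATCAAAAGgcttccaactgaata
KIF21A 21 nt (chr12:39724044-39724064, minus strand): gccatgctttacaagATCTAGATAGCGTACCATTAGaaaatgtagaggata

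CASK, a membrane scaffold, had 0.086, 0.086 and 0.13 in KO and 0.859, 0.863 and 0.918 in WT (difference -0.779). NUMB, an endocytic adaptor that restrains NOTCH, had 0.076, 0.098 and 0.049 in KO and 0.729, 0.783 and 0.606 in WT (difference -0.632). MARK3, a kinase of cell polarity, had no inclusion read in any KO library and 0.711, 0.595 and 0.749 in WT, with a mean of 11 junction reads per KO library. KIF21A, a kinesin motor, had 0.101, 0.051 and 0.1 in KO and 0.735, 0.68 and 0.585 in WT (difference -0.583). KO was low and WT high for each, with no overlap. NUMB also changed at a longer exon of 144 nt, in the other direction, with 0.776, 0.796 and 0.822 in KO and 0.666, 0.671 and 0.638 in WT.

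**Figure D1:**
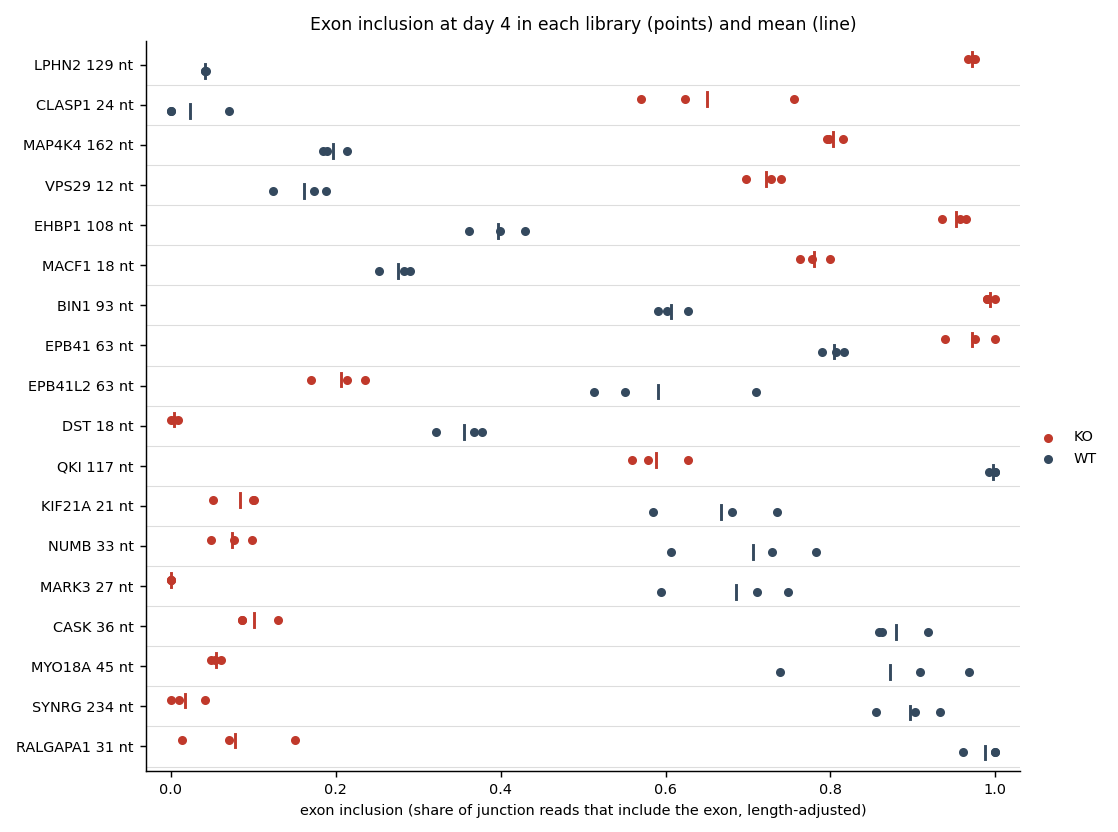
Inclusion of 18 named exons at D4. Each point is 1 library (red KO, blue WT), the vertical line is the mean of 3, and the horizontal axis runs from 0 (always skipped) to 1 (always included). The LPHN2 exon sits at 0.967 to 0.975 in KO and at 0.041 to 0.042 in WT, and the groups do not overlap for any exon drawn.

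Paralogous genes changed opposite ways at matching exons, a pattern picked out after the values were seen. MACF1 and DST are spectraplakins, giant linkers of actin and microtubules, and both hold an 18-nt exon. EPB41 and EPB41L2 are protein 4.1 members, which tie the spectrin skeleton to the membrane, and both hold a 63-nt exon. The sequences are shown in the same way, with the exon in capitals.
MACF1 18 nt (chr1:39930767-39930784, plus strand): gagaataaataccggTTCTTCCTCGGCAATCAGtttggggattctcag
DST 18 nt (chr6:56333780-56333797, minus strand): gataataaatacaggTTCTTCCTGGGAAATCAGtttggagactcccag
EPB41 63 nt (chr1:29386934-29386996, plus strand): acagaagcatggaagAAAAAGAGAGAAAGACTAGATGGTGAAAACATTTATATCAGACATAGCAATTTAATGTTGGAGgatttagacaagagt
EPB41L2 63 nt (chr6:131201284-131201346, minus strand): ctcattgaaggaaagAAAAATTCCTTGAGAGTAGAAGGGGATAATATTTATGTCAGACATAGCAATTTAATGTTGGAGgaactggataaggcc
The 18-nt exons are identical at 16 of 18 positions and the 63-nt exons at 50 of 63. MACF1 had 0.778, 0.763 and 0.8 in KO and 0.29, 0.283 and 0.252 in WT (difference 0.505), whereas DST had 0.008, 0.004 and 0 in KO and 0.367, 0.377 and 0.322 in WT (difference -0.351). EPB41 had 0.975, 0.939 and 1 in KO and 0.79, 0.807 and 0.816 in WT (difference 0.167), whereas EPB41L2 had 0.214, 0.17 and 0.235 in KO and 0.513, 0.551 and 0.71 in WT (difference -0.385). In both pairs 1 member gained the exon in KO and the other lost it, without overlap between the genotypes. Both spectraplakin exons were called by limma as well, and neither protein 4.1 exon was.

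Muscle and cytoskeletal genes carried further called exons. TPM1 encodes tropomyosin, which covers myosin sites on actin. Its 76-nt exon had 0.966, 0.964 and 0.963 in KO and 0.67, 0.672 and 0.65 in WT, and its 79-nt exon had 0.586, 0.53 and 0.544 in KO and 0.916, 0.938 and 0.955 in WT. The 76-nt exon was thus used more and the 79-nt exon less, from means of 1760.3 and 602 junction reads per KO library. Beside the 93-nt exon, BIN1 gained inclusion at exons of 129 nt (0.233) and at 2 exons of 108 nt (0.399 and 0.248). The spectrin SPTAN1 gained a 60-nt exon (0.302) and the exocyst subunit EXOC1 a 45-nt exon, at 1, 1 and 1 in KO and 0.593, 0.665 and 0.637 in WT. ANK3, an ankyrin that anchors channels to spectrin, gained a 54-nt exon (0.243) and lost a 63-nt one (-0.292). ANK2, its relative in heart muscle, gained a 6255-nt exon (0.431). Only 1 named exon in these genes overlapped between the genotypes, the 129-nt exon of KIF21A, at 0.952, 1 and 1 in KO and 0.611, 0.867 and 1 in WT. A 20-nt exon of the calcium channel subunit CACNB1 rested on 1 KO library: its difference was 0.135 with all libraries and 0.082 without that library.

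Some genes of splicing regulators were spliced differently too. The 117-nt exon of QKI (chr6:163899812-163899928, plus strand) had 0.559, 0.627 and 0.579 in KO and 0.992, 1 and 1 in WT, so every KO library was lower. QKI is itself the gene knocked out, and whether this change comes from the edited locus was not tested. PTBP1, a repressor of tissue exons, used its 57-nt exon more, at 0.586, 0.556 and 0.607 in KO and 0.464, 0.441 and 0.449 in WT. CELF1 used a 105-nt exon more (0.297) and a 152-nt exon less (-0.358), and ESRP1, a regulator of epithelial exons, used a 110-nt exon less (-0.137). The 152-nt CELF1 exon rested on means of 14 junction reads per KO library and 18.3 per WT library. Its inclusion spread widely in KO, at 0.84, 0.429 and 0.556. The differences in PTBP1 and ESRP1 were small next to those in the cytoskeletal genes, though without overlap.

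Exon length was not used by the calls. Lengths were a multiple of 3 nt in 177 of 313 exons more included in KO (56.5%) and in 178 of 303 more skipped (58.7%), against 40.3% of 46389 exons not called. Exons of at most 27 nt made up 6.39% of the more included and 4.29% of the more skipped, against 1.21% of those not called. Among uncalled exons with a mean inclusion between 0.05 and 0.95, which like the called ones are used in part, these shares were 42.3 and 1.89%. Median WT inclusion was 0.591 for exons more included in KO and 0.850 for those more skipped; the call itself uses inclusion, so nothing is read from these medians. The shares by length are descriptions of the 3 sets of exons and were not tested.

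ACTAAC within the exon was searched on the transcript strand only, in exons matched to GENCODE 29 (over 97% of called ones). It stood in 23 of 305 exons more included in KO (7.54%), in 2 of 296 more skipped (0.676%), in 1.11% of 45487 not called and in 1.41% of 8817 not called with intermediate inclusion. Per 1000 nt searched, that was 0.561 matches in exons more included, 0.0488 in exons more skipped and 0.0775 in exons not called. Of the 15 exons with a gain of at least 0.5, 4 held it: LPHN2, MAP4K4, EHBP1 and a 105-nt exon of the Mediator subunit MED12L. MED12L, named for its match, had 0.778, 1 and 1 in KO and 0.4, 0.692 and 0.143 in WT, from means of 11 junction reads per KO library and 12.3 per WT library. None of 23 matched exons with a loss of at least 0.5 held it. Smaller gains with a match included ANK2, DYSF, which repairs muscle membrane (0.386), and a 69-nt exon of CASK (0.187), which was gained while the 36-nt exon of the same gene was lost. A match is a description and does not show binding, and introns were not searched.

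**Figure D2:**
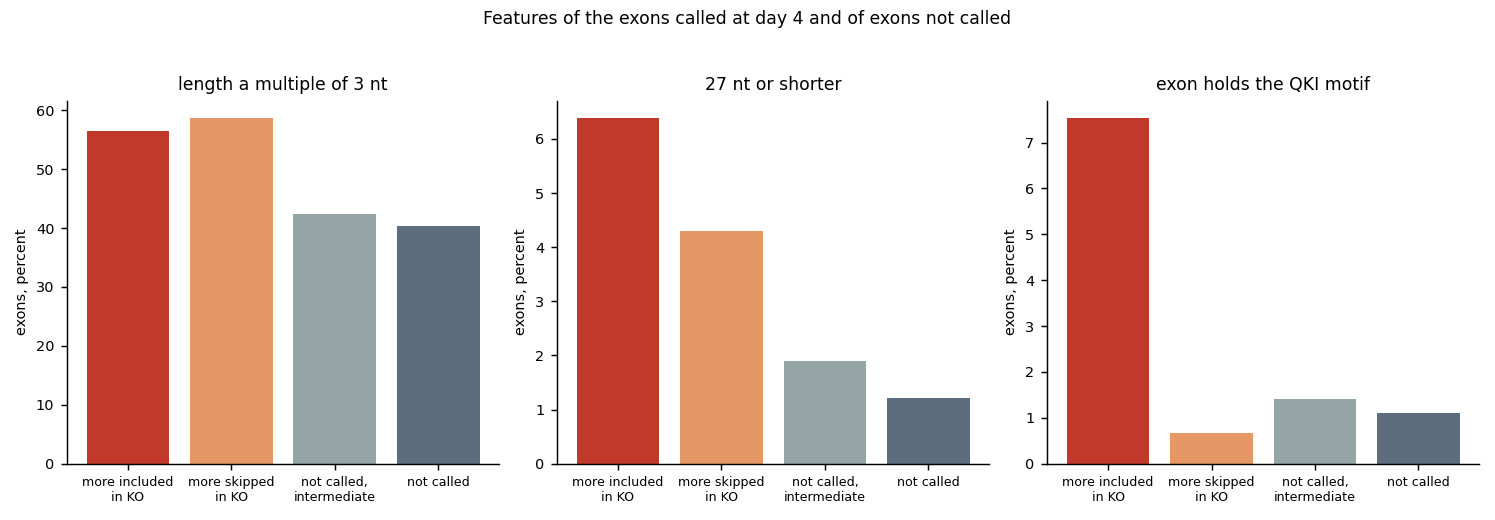
Share of exons, in percent, with a length that is a multiple of 3 nt, with a length of 27 nt or less, and with ACTAAC inside the exon. Bars stand for exons more included in KO, more skipped in KO, not called with a mean inclusion of 0.05 to 0.95, and all not called; the motif share is 7.54% in exons more included and 0.676% in exons more skipped.

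Events called at D4 were set beside the authors' tables for day 0 (D0), day 8 (D8) and 293T cells, a kidney-derived line given an siRNA against QKI or a control siRNA. D0 cells of both genotypes were undifferentiated, and D8 cells followed the same genotype-specific CHIR doses as D4 cells. At D8 QKI was not lower in the libraries labelled KO (log2 fold change 0.05), so those are named by their label only. Shares are of those calls whose event stands in both tables compared. With D0, among 52080 shared events, 214 were called on both days: 35.0% of 611 D4 calls and 13.8% of 1550 D0 calls. With D8, among 54323 shared events, it was 275 (43.7% of 630 D4 calls, 18.1% of 1521 D8 calls). With 293T, among 39730 shared events, it was 62 (12.0% of 515 D4 calls, 32.3% of 192 293T calls). The direction was the same in 192 of 214, 260 of 275 and 62 of 62, with the same order of arms assumed in all 4 tables. The 44 events called in all 4 tables lie in genes that include LPHN2, MAP4K4, MYO18A, SYNRG, RALGAPA1, NUMB, MACF1, DST and BIN1. VPS29 is among these genes through another event than the 12-nt one given above, which was not called in 293T (0.078). For LPHN2 the difference was 0.930 at D4, 0.902 at D0, 0.903 at D8 and 0.813 in 293T. The 117-nt QKI exon was called at D4 (-0.409) and D0 (-0.374), and not at D8 (-0.022) or in 293T (0.019). Another 315 events were called at D4 only, of which 119 had enough reads in the other 3 tables. They include the 152-nt CELF1 exon (-0.046 at D0, 0.032 at D8 and 0.217 in 293T). The C5orf45 exon is also among them (0.025 at D0, 0.006 at D8 and -0.002 in 293T).

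Of the events called on both days, 22 took the opposite direction at D0 and 15 at D8. TPM1's 76-nt exon was called higher at D4 (0.300) and at D0 (0.449) and was not called at D8 (-0.095). The EHBP1 exon was called at D4 (0.556) and D8 (0.615) and not at D0 (0.095). Fibroblast growth factor receptor 2 (FGFR2), picked after its values were seen, has mutually exclusive exons IIIb and IIIc, which set its ligands and are typical of epithelial and mesenchymal cells. At D4 the 148-nt IIIb exon had 0.378, 0.383 and 0.451 in KO and 0.183, 0.142 and 0.136 in WT, and the 145-nt IIIc exon had 0.509, 0.38 and 0.506 in KO and 0.722, 0.724 and 0.74 in WT. KO therefore held more IIIb and less IIIc at D4, while at D8 the differences were -0.359 and 0.278, both called. The change between days was not tested for exons.

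Gene levels were compared next, in 1 fit with all 18 whole-cell libraries. Of 21761 genes tested, 6171 (28.4%) were called at an adjusted p under 0.05, with 3556 (16.3%) higher and 2615 (12.0%) lower in KO. At least a 2-fold change was seen in 1235 of them (5.68%), 870 higher and 365 lower. The share of higher genes among those called was 57.6% with TMM scaling, 73.8% with total counts, 51.7% with RLE factors and 50.6% with DESeq2, so the balance depends on the scaling. Total counts moved the median of all genes to 0.07 (log2), against 0.00 with TMM. Correlation of libraries was 0.996 to 0.998 within KO, 0.989 to 0.996 within WT and 0.964 to 0.970 between the genotypes. Genes whose exons were called overlapped in part with genes whose level was called: 37.6% of 489 such genes were called, against the 28.4% of all genes. Exon calls need junction reads, so these genes leave out many low-count ones that the 28.4% includes. Of 10165 genes with a mean of at least 10 CPM at D4, 3691 were called without overlap between the genotypes. Nothing is therefore read from the difference between these shares.

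Over all genes tested, 16.3% were higher and 12.0% lower, and list counts near these shares are not read as results. Of the 38 gene lists, the endothelial one had the largest share of higher genes. Of 28 tested, 21 were higher and none lower, with a median log2 fold change of 0.92, against 0.00 over all genes. VE-cadherin (CDH5), the adhesion protein of endothelial junctions, had 5.62, 8.09 and 7.28 CPM in KO libraries, against 1.031, 1.08 and 1.18 CPM in WT libraries (log2 fold change 2.67, SE 0.17, adjusted p 2.2e-10). CD34, a surface protein of endothelial and blood progenitors, had 44.96, 52.5 and 52.4 CPM in KO and 9.40, 9.55 and 8.64 CPM in WT (log2 fold change 2.44, SE 0.14, adjusted p 5.1e-11). The lowest KO library was several times the highest WT library for both. The VEGF receptor KDR, also present in cardiac mesoderm, had 369, 410.5 and 368 CPM in KO and 206, 173 and 199 CPM in WT (0.99, SE 0.08, adjusted p 5.0e-09). PLVAP of endothelial diaphragms rose by 3.42 on the log2 scale and the transcription factor FLI1 by 3.46, from levels under 1 CPM in WT. The angiopoietin receptor TEK was not called, at 11.4, 12.1 and 11.9 CPM in KO and 19, 16.4 and 10.6 CPM in WT, and the groups overlapped. It was called lower without WT replicate 3 and under 5 other settings, among them RLE factors and DESeq2. Summed over the 4 tested endothelial markers, KO held 431 to 483 CPM and WT 200 to 236, most of it KDR; in bulk RNA, more cells of a type and more RNA per cell cannot be told apart.

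Early blood regulators moved with them. TAL1, needed for the first blood cells, had 4.68, 6.19 and 6.76 CPM in KO and 0.356, 0.520 and 0.983 CPM in WT (log2 fold change 3.28, SE 0.26, adjusted p 5.2e-09). Its partner LMO2 had 3.04, 2.80 and 3.40 CPM in KO and 1.07, 1.12 and 1.22 CPM in WT (1.44). HHEX, shared by blood, endothelial and endoderm precursors, had 62.9, 66.7 and 63.4 CPM in KO and 22.6, 25.6 and 23.99 CPM in WT (1.42). Markers of later blood stages were at low levels: RUNX1 had 0.413, 0.605 and 0.349 CPM in KO and 0.600, 0.686 and 0.360 CPM in WT, GATA1 0.206, 0.222 and 0.240 CPM in KO and 0.169, 0.208 and 0.264 CPM in WT, and neither was called. The globin gene HBZ had 1, 0 and 1 counts in KO and none in WT. In the blood list as a whole, 6 of 18 genes were higher and none lower.

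Most endoderm genes rose. Of 22 endoderm transcription factors and surface genes, 16 were higher and 1 lower (median 0.83), and of 23 secreted proteins of liver and yolk sac 14 were higher and none lower (median 1.12). HNF4A, a liver regulator, had 28.3, 29.3 and 27.7 CPM in KO and 8.42, 8.59 and 9.16 CPM in WT (log2 fold change 1.71, SE 0.14, adjusted p 6.6e-09). SOX17, which specifies endoderm and also marks some endothelium, had 56.5, 63.1 and 65.7 CPM in KO and 28.02, 30.9 and 32.7 CPM in WT (1.02, SE 0.10, adjusted p 2.3e-07). FOXA2, a pioneer factor of endoderm, had 58.3, 64.3 and 66.3 CPM in KO and 27.1, 28.6 and 29.9 CPM in WT (1.14, SE 0.10, adjusted p 1.5e-08). Each of these 3 stood at more than 2 times the WT mean, with no overlap between the libraries. The apolipoproteins APOA1 and APOA2 of lipid-carrying particles also rose: APOA1 had 44.4, 51.4 and 47.2 CPM in KO and 13.5, 15.1 and 14.2 CPM in WT, and APOA2 41.7, 40.99 and 38.3 CPM in KO and 8.05, 8.07 and 8.85 CPM in WT. The chemokine receptor CXCR4 (1.66) and the retinol carrier RBP4 (2.08) were higher as well. Summed over 4 endoderm markers, KO held 188 to 208 CPM and WT 77.0 to 85.9 CPM.

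Genes of the primitive streak and of NODAL signalling were higher in 14 of 22 cases and lower in 2. CER1, a secreted inhibitor of NODAL and BMP, had 25.5, 23.2 and 20.8 CPM in KO and 4.44, 5.97 and 3.89 CPM in WT (log2 fold change 2.28, SE 0.21, adjusted p 3.8e-08). The growth factor GDF3 (1.71), FGF17 (1.41) and the NODAL co-receptor TDGF1 (0.49) rose. MIXL1, a homeobox gene of streak cells, went the other way, with 2.72, 1.96 and 1.94 CPM in KO and 2.96, 4.47 and 4.46 CPM in WT (-0.83, SE 0.21, adjusted p 0.0049). The list therefore did not move as 1 block.

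**Figure D3:**
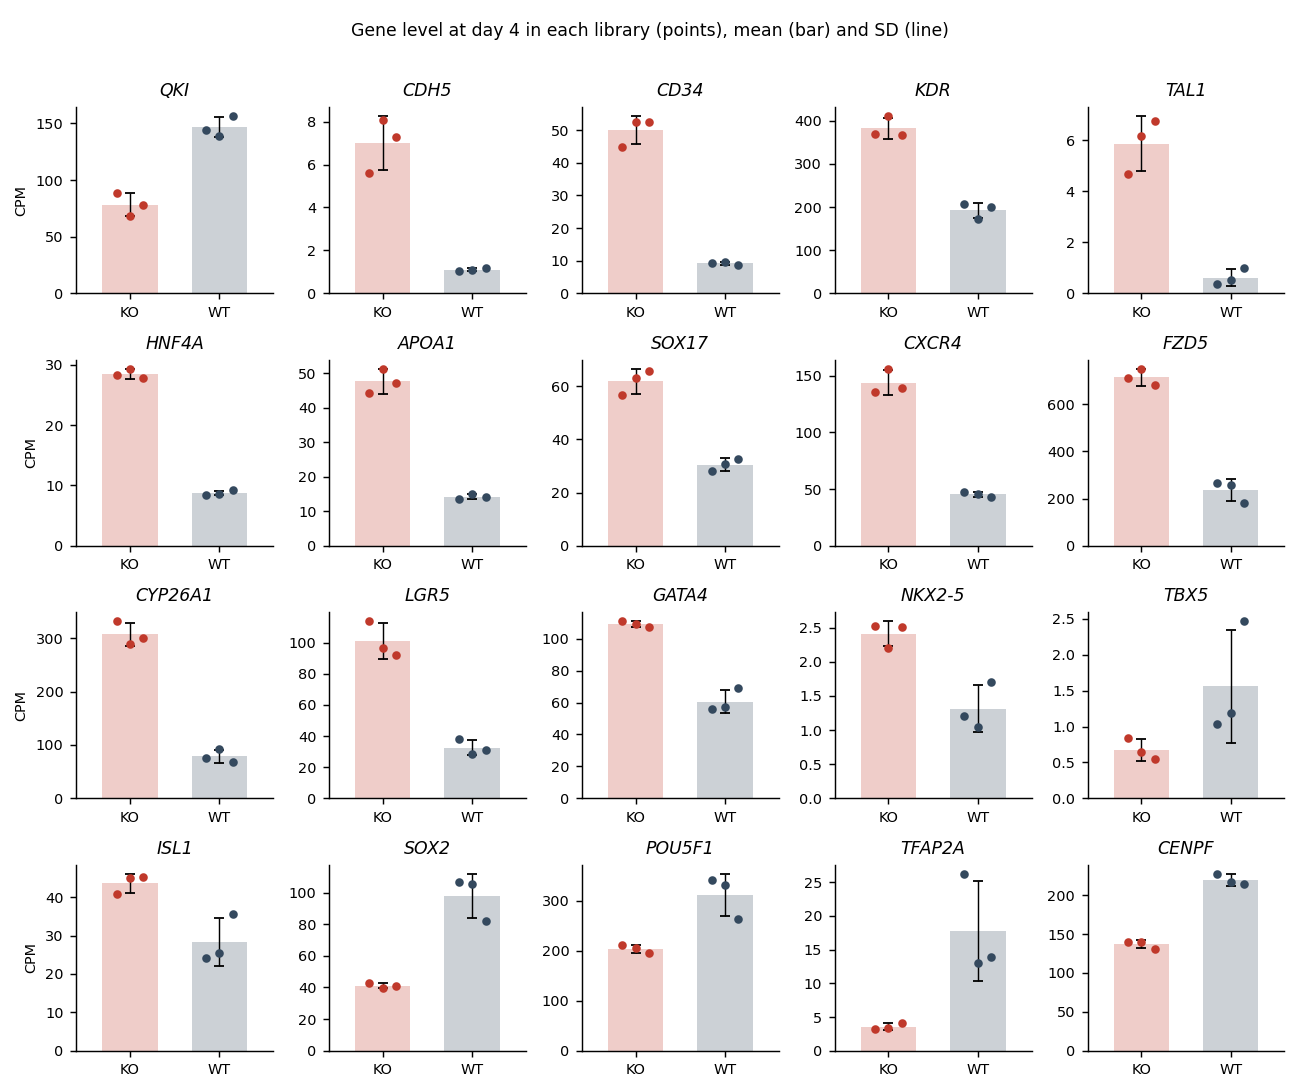
Gene levels at D4 in CPM for 20 named genes, with each library as a point, the mean as a bar from 0 and the SD as a line (KO left, WT right, 3 libraries each). KO lies above WT without overlap for CDH5, CD34, TAL1, HNF4A and APOA1, and below it for QKI, SOX2, POU5F1, TFAP2A and CENPF.

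WNT ligands and receptors were higher in 15 of 30 genes and lower in 3, and WNT targets and feedback genes higher in 8 of 21 (5 without KO replicate 2) and lower in 2. FZD5, a WNT receptor, had 709, 751 and 681 CPM in KO and 268, 258 and 183 CPM in WT (log2 fold change 1.59, SE 0.11, adjusted p 6.8e-10). FRZB, a secreted WNT antagonist, had 36.3, 40.3 and 39.2 CPM in KO and 10.5, 11.7 and 11.1 CPM in WT (1.80, SE 0.11, adjusted p 3.1e-10). LGR5, a target gene and receptor that amplifies WNT signals, had 114, 96.7 and 92 CPM in KO and 38.1, 28.6 and 31.2 CPM in WT (1.63, SE 0.17, adjusted p 3.1e-07). All 3 were higher in each KO library; KO cells had been given the lower dose of the WNT activator CHIR, and the part of dose cannot be told apart from that of genotype. WNT11 (1.42), a ligand of heart formation, and the receptor-removing ligase RNF43 (0.59) rose, while SFRP2 (-0.64), another antagonist, and cyclin D1 (CCND1, -0.86) fell.

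BMP pathway genes were higher in 13 of 26 and lower in 2. The ligand BMP5 had 19.7, 14.3 and 13.2 CPM in KO and 6.49, 5.30 and 6.24 CPM in WT (1.39), and the secreted BMP antagonist NOG (1.20) rose too. Follistatin (FST), which traps activin, fell to 15.7, 14.7 and 13.4 CPM in KO, against 54.6, 45.2 and 35.1 CPM in WT (log2 fold change -1.62, SE 0.16, adjusted p 1.3e-07). Secreted antagonists therefore moved both ways. Of 24 genes of FGF signalling and ERK feedback, 10 were higher and 2 lower. The phosphatase DUSP4 (0.96) and the receptor FGFR4 (0.92) rose, while FGF2 had 30.7, 23.01 and 24.9 CPM in KO and 62.1, 56.5 and 40.9 CPM in WT (-1.02). The NOTCH list split evenly, with 5 higher and 5 lower of 21 (3 lower under total counts or without WT replicate 2): NOTCH1 (-0.79), NOTCH3 (-0.46) and the target HES1 (-0.48) fell, and NOTCH4 (0.71), LFNG (0.68) and the ligand DLL1 (0.52) rose. CYP26A1, which degrades retinoic acid, stood out in the retinoic acid list: it had 332, 290.2 and 299.8 CPM in KO and 76.04, 91.96 and 68.7 CPM in WT (log2 fold change 1.96, SE 0.19, adjusted p 8.8e-08), while 3 of 22 genes of that list were higher in all and 1 lower. Without WT replicate 3 the higher count was 7. With all libraries, the counts lay below the shares over all genes (16.3% higher and 12.0% lower).

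Cardiac mesoderm and progenitor genes were higher in 11 of 22 and lower in 2 (median 0.38). GATA4, a core cardiac factor that endoderm also expresses, had 111, 109 and 108 CPM in KO and 56, 56.9 and 68.99 CPM in WT (log2 fold change 0.85, SE 0.10, adjusted p 1.3e-06). TBX3 had 75.2, 77.7 and 76.1 CPM in KO and 35.9, 32.9 and 34.4 CPM in WT (1.15, SE 0.06, adjusted p 5.5e-11). ISL1, a marker of second heart field progenitors, had 40.8, 44.96 and 45.2 CPM in KO and 24.1, 25.6 and 35.6 CPM in WT (0.62, SE 0.11, adjusted p 2.3e-04). These 3 were higher in KO without overlap, and HAND2 rose as well, by 1.06 on the log2 scale. NKX2-5 was low in both, at 2.53, 2.20 and 2.51 CPM in KO and 1.20, 1.04 and 1.70 CPM in WT (0.89, SE 0.27, adjusted p 0.015). TBX5, of the first heart field, went down, with 0.842, 0.645 and 0.545 CPM in KO and 1.031, 1.19 and 2.47 CPM in WT (-1.14, SE 0.33, adjusted p 0.013). HAND1 was not called, at 86.5, 78.6 and 85.5 CPM in KO and 55.2, 65.4 and 82.3 CPM in WT, but was called higher without WT replicate 3 and under 3 other settings.

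Several of these cardiac calls rested on single libraries. WT replicate 3 was the highest WT library for GATA4, HAND2, ISL1, NKX2-5, TBX5, HAND1, GATA6 and PDGFRA. NKX2-5 was no longer called without WT replicate 1 or 2, and TBX5 without KO replicate 3 or WT replicate 3. GATA6 and PDGFRA, a receptor of early mesoderm, overlapped between the genotypes (0.38 and 0.38) and lost their calls without KO replicate 1 or 2 or WT replicate 1 or 2. MEF2C (0.97) lost its call without KO replicate 1 or WT replicate 1 or 2. The count of higher genes in the cardiac list ran from 6 (without WT replicate 1 or 2) to 13 when 1 library was left out, and was 7 without KO replicate 1.

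Sarcomere genes showed no common direction: 5 of 28 were higher and 5 lower, near the shares over all genes (16.3% higher and 12.0% lower). The higher count was 2 without KO replicate 1 or WT replicate 2, 8 without KO replicate 3 and 10 with no low-count filter. Titin (TTN), the molecular spring, had 289, 271 and 259 CPM in KO and 213, 179 and 193 CPM in WT (0.48, SE 0.10, adjusted p 0.001). Skeletal actin (ACTA1) had 7.13, 7.40 and 8.18 CPM in KO and 24.98, 23.5 and 15.6 CPM in WT (-1.50, SE 0.17, adjusted p 1.1e-06), and cardiac troponin I (TNNI3) 1.81, 2.26 and 1.98 CPM in KO and 6.77, 6.72 and 5.64 CPM in WT (-1.67, SE 0.17, adjusted p 1.6e-07). Titin was thus higher in every KO library and the other 2 genes lower. Troponin T (TNNT2), the usual marker of cardiomyocytes, was not called, with 15.9, 8.55 and 6.54 CPM in KO and 10.9, 6.49 and 7.60 CPM in WT. MYH6 (0.76), MYL7 (0.43) and ACTC1 (0.45) were called higher, but each lost its call without KO replicate 1, the library with the highest level of all 3, or without WT replicate 2. ACTC1 also lost it without WT replicate 3.

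Calcium handling and ion channel genes were higher in 13 of 25 and lower in 1. TRDN, which anchors the calcium release channel, had 4.92, 3.85 and 3.86 CPM in KO and 1.50, 1.89 and 1.37 CPM in WT (1.41). The gap junction gene GJA5 had 9.61, 10.4 and 9.81 CPM in KO and 3.98, 4.66 and 5.28 CPM in WT (1.11). The calcium release channel itself, RYR2, was the member that fell, with 7.91, 5.81 and 5.45 CPM in KO and 12.5, 9.67 and 8.06 CPM in WT (-0.66, SE 0.16, adjusted p 0.0028).

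Pluripotency genes were lower in 11 of 20 and higher in 2. SOX2 had 42.96, 39.8 and 40.8 CPM in KO and 107, 105 and 81.8 CPM in WT (log2 fold change -1.25, SE 0.08, adjusted p 4.1e-10), and POU5F1, which encodes OCT4, had 211, 206 and 194 CPM in KO and 341, 331 and 263 CPM in WT (-0.61, SE 0.12, adjusted p 6.7e-04). PRDM14 (-1.40) and ZIC2 (-1.20) fell with them. NANOG was low in both, with 2.08, 1.39 and 1.22 CPM in KO and 1.67, 1.41 and 1.30 CPM in WT, and was not called. The usual pluripotency factors were therefore not all lower. SOX3, a relative of SOX2 in neural progenitors, fell to 2.18, 1.71 and 1.81 CPM in KO, against 12.6, 11.4 and 7.94 CPM in WT (-2.48), while the neuronal gene STMN2 (1.92) and N-cadherin (CDH2, 1.06) rose. The neural markers PAX6 and SOX1 had 0 to 7 counts in any library and were below the filter.

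Surface ectoderm and amnion genes split, with 5 higher and 6 lower of 20 (10 lower with no low-count filter). TFAP2A, a regulator of ectoderm and neural crest, had 3.21, 3.33 and 4.12 CPM in KO and 26.3, 12.98 and 13.96 CPM in WT (log2 fold change -2.33, SE 0.24, adjusted p 2.6e-07). Its relative TFAP2C had 4.14, 4.42 and 4.97 CPM in KO and 24.2, 14.5 and 14.01 CPM in WT (-1.97, SE 0.18, adjusted p 5.6e-08), and the homeobox genes DLX5 (-3.93) and DLX6 (-3.44) fell to under 0.3 CPM. WT replicate 1 was highest for all 4, but the other WT libraries also lay above every KO library. GATA3, shared by amnion and trophoblast, rose instead, with 139.7, 144 and 139.9 CPM in KO and 74.5, 67.8 and 72.97 CPM in WT (0.98, SE 0.10, adjusted p 1.6e-07), as did keratin 19 (KRT19, 0.56).

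**Figure D4:**
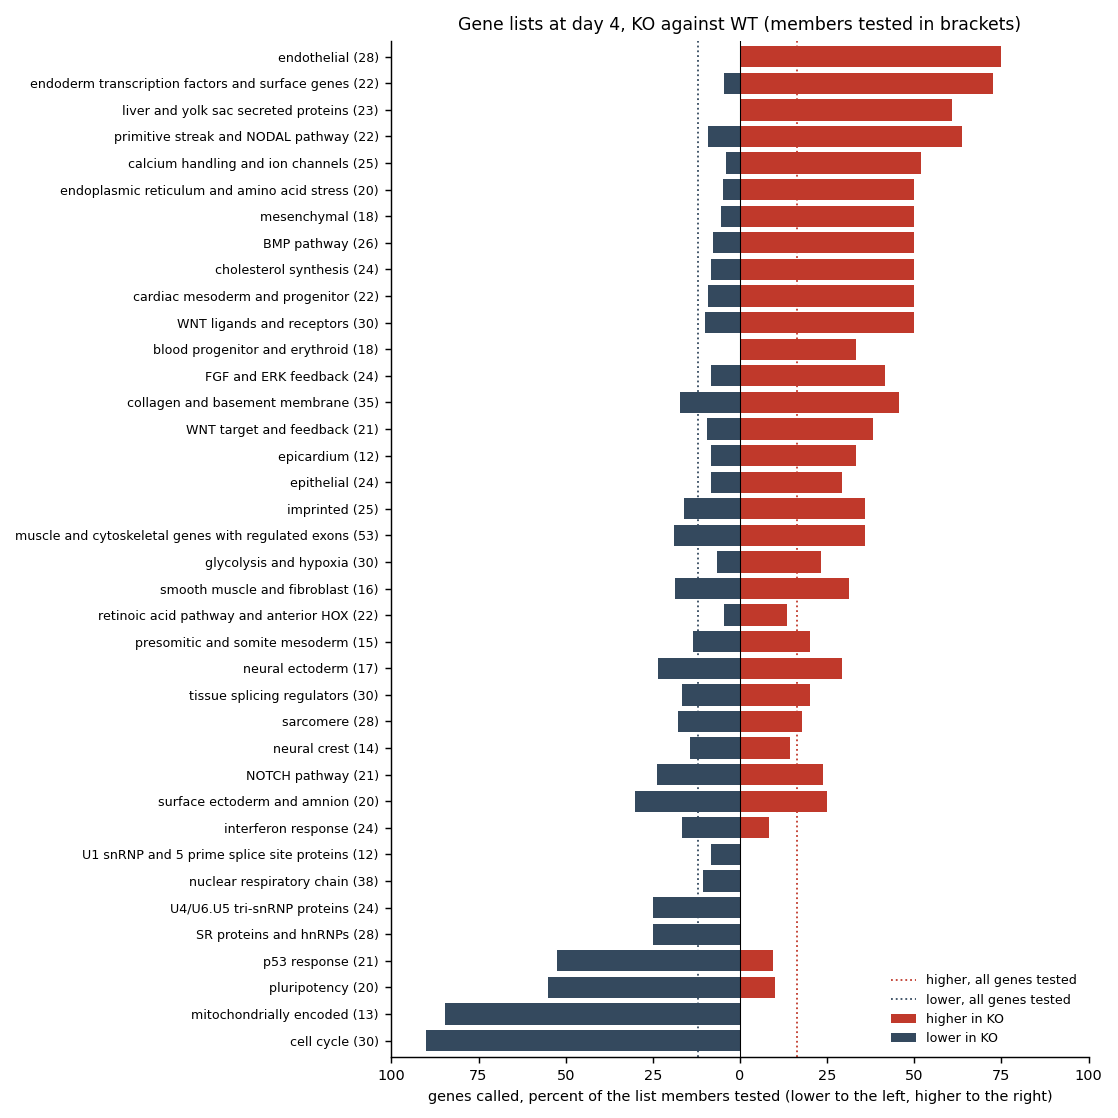
Share of tested members called higher (red, right) and lower (blue, left) in KO for 38 gene lists at D4, in percent, with the number tested in brackets. Dotted lines mark the shares over all genes, 16.3% higher and 12.0% lower; endothelial and endoderm lists lie farthest to the right and the cell cycle list farthest to the left.

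Cell cycle genes were lower in 27 of 30 and higher in none, by small amounts (median -0.35). CENPF, a kinetochore protein of dividing cells, had 140.4, 140.1 and 131 CPM in KO and 228, 216 and 214 CPM in WT (log2 fold change -0.68, SE 0.11, adjusted p 6.4e-05). The mitotic kinase AURKB had 40.8, 43.7 and 43.7 CPM in KO and 63.01, 60.4 and 60.04 CPM in WT (-0.52, SE 0.07, adjusted p 3.9e-06). Under total-count scaling 19 of the 30 were lower and none higher. Genes of the p53 response were lower in 11 of 21 (7 under total counts or without KO replicate 1) and higher in 2. Lower were the cell cycle inhibitor CDKN1A (-0.55) and PHLDA3 (-0.71), while GADD45A (0.62) went the other way.

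Of 13 mitochondrially encoded genes, 11 were lower and none higher. Cytochrome b (MT-CYB) had 4629.6, 5675 and 4759 CPM in KO and 10629, 9149 and 8212 CPM in WT (-0.89, SE 0.13, adjusted p 2.5e-05). Of nuclear respiratory chain genes 4 of 38 were lower, near the 12.0% over all genes, and none higher (median -0.14). That lower count was 1 without KO replicate 1 or WT replicate 2, 2 without KO replicate 3 or under total counts, 9 with no low-count filter or with the replicate block, and 15 in a fit of the D4 libraries alone. CHCHD2, a nuclear gene for a mitochondrial protein, was among the 10 lowest fold changes of called genes with a mean of at least 10 CPM and no overlap, and fell to 22.6, 23.9 and 22.6 CPM in KO, against 96.9, 114 and 118 CPM in WT (log2 fold change -2.25, SE 0.13, adjusted p 1.2e-10). Leaving the mitochondrially encoded genes out gave 6332 called genes, close to the 6171.

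Genes of metabolism and stress were mostly higher where they were called. Cholesterol synthesis genes rose in 12 of 24 and fell in 2, with SC5D (0.86) and INSIG1 (0.76) the highest and LSS (-0.31) lower. Endoplasmic reticulum and amino acid stress genes rose in 10 of 20 and fell in 1. XBP1, the transcription factor of the unfolded protein response, had 158, 169 and 163 CPM in KO and 84.01, 84.3 and 82.7 CPM in WT (0.97, SE 0.06, adjusted p 1.9e-10), and the serine synthesis enzyme PHGDH (-0.54) was the one that fell. VEGFA, the growth factor of endothelium and a hypoxia target, had 301, 309 and 303 CPM in KO and 147, 150.4 and 139 CPM in WT (1.07, SE 0.08, adjusted p 3.5e-09). Of its list of 30 hypoxia and glycolysis genes, 7 were higher and 2 lower, so most did not move with it.

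Collagen and basement membrane genes were higher in 16 of 35 and lower in 6. The basement membrane collagen COL4A1 had 1322, 1583 and 1457 CPM in KO and 910.0, 883 and 772 CPM in WT (0.77). Fibrillar COL1A2 (-0.65) and the laminin LAMA5 fell, LAMA5 to 266, 234 and 258 CPM in KO, against 571, 424 and 349 CPM in WT (-0.82). Imprinted genes, read from 1 parental copy, were higher in 9 of 25 (5 without KO replicate 1 or WT replicate 1) and lower in 4. PEG3 had 136, 125 and 115 CPM in KO and 41.3, 37.4 and 38.4 CPM in WT (1.68, SE 0.08, adjusted p 3.5e-12), and DLK1 (1.46) and IGF2 (1.06) rose too, while NNAT fell to 6.69, 7.34 and 8.13 CPM in KO, against 27.7, 37.7 and 49.8 CPM in WT (-2.38, SE 0.16, adjusted p 3.4e-09).

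Other lists held called genes in both directions. Mesenchymal genes were higher in 9 of 18 and lower in 1, with the collagen cross-linking enzyme LOX at 7.41, 7.12 and 6.65 CPM in KO and 2.29, 3.08 and 3.12 CPM in WT (1.33) and CDH2 among the higher ones, and TWIST1 (-0.82) lower. TWIST1 was no longer called without WT replicate 3. Epithelial genes were higher in 7 of 24 and lower in 2: the tight junction gene CLDN3 had 25.1, 30.1 and 28.8 CPM in KO and 13.2, 14.2 and 12.4 CPM in WT (1.08), whereas CLDN4 (-0.80) and GRHL2 (-0.75) fell. The remaining lists were split, with 5 higher and 4 lower of 17 neural ectoderm genes, 2 and 2 of 14 neural crest genes, 3 and 2 of 15 presomitic genes, 5 and 3 of 16 smooth muscle and fibroblast genes, 4 and 1 of 12 epicardial genes (2 higher without KO replicate 1 or WT replicate 2) and 2 and 4 of 24 interferon response genes. Over all genes 16.3% were higher and 12.0% lower, and nothing is read from these split counts. Muscle and cytoskeletal genes with regulated exons were higher in 19 of 53 and lower in 10. BIN1 rose as a whole, with 251, 265 and 267 CPM in KO and 143, 127 and 139 CPM in WT (0.94, SE 0.07, adjusted p 3.0e-09), beside the gains of its exons.

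Genes of the splicing machinery were counted by class. No SR protein or hnRNP gene was higher and 7 of 28 were lower, HNRNPM (-0.36) and HNRNPA2B1 (-0.34) among them. Of U4/U6.U5 tri-snRNP genes 6 of 24 were lower, and of U1 genes 1 of 12. With total-count scaling these lower counts were 3, 1 and 0, and with RLE factors 11, 11 and 3, so they depend on the scaling. The SR and hnRNP count was 3 without KO replicate 2 or 3 and 4 without WT replicate 2 or 3. The tri-snRNP count was 2 when any 1 KO library, or WT replicate 2 or 3, was left out. Tissue splicing regulators moved both ways, 6 higher and 5 lower of 30 (8 lower in a fit of the D4 libraries alone). Over all genes 16.3% were higher and 12.0% lower, so the main counts of tissue regulators lie near those shares. RBFOX1 had 4.14, 4.19 and 4.51 CPM in KO and 2.63, 2.68 and 2.37 CPM in WT (0.74), the endodermal and epithelial factor RBM47 had 50.6, 49.5 and 49.98 CPM in KO and 32.6, 29.9 and 28.5 CPM in WT (0.72), and MBNL1, which sets muscle exons, had 3.68, 3.21 and 3.88 CPM in KO and 6.68, 5.32 and 5.47 CPM in WT (-0.70).

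The largest rises by fold at 10 CPM or more, apart from genes already named, were in genes of several kinds. FMOD, a collagen-binding matrix protein, had 36.1, 37.6 and 37.9 CPM in KO and 6.53, 6.80 and 6.48 CPM in WT (2.49, SE 0.15, adjusted p 1.2e-10). SEMA3E, a guidance cue for vessels and axons, had 128, 125 and 113 CPM in KO and 29.5, 26.7 and 27.2 CPM in WT (2.13, SE 0.09, adjusted p 1.1e-12). The cation channel TRPA1 had 39.3, 34.4 and 29.6 CPM in KO and 7.20, 7.49 and 5.66 CPM in WT (2.34, SE 0.14, adjusted p 1.1e-10). In all 3 the KO libraries lay at over 3 times the highest WT library. S100A14 (2.38), VIPR2 (2.24) and PCDHB5 (2.33), whose reads near-identical protocadherin copies may share, complete them. Among falls, VAT1L had 21.6, 21.2 and 19.2 CPM in KO and 86.7, 83.5 and 68.9 CPM in WT (-1.95, SE 0.11, adjusted p 3.9e-11), and NAP1L3 had 35.4, 33.4 and 35.3 CPM in KO and 122, 118 and 105 CPM in WT (-1.73, SE 0.08, adjusted p 3.2e-12). TRIM22 (-2.19), TTYH1 (-1.90) and RHBDL3 (-1.75) fell similarly.

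By amount of RNA, the largest rises were in FN1, APOE, LAPTM4B, COL4A1 and SERPINE2. Mitochondrially encoded genes were left out of this ranking of rises and falls. MT-CYB, given above, fell by more CPM than any gene in it. APOE, a lipid carrier, had 1358, 1605 and 1540.3 CPM in KO and 788, 792 and 803 CPM in WT (0.92, SE 0.10, adjusted p 3.1e-07). Fibronectin (FN1) had 3842, 4368 and 3779 CPM in KO and 3446, 2766 and 2847 CPM in WT (0.40, SE 0.13, adjusted p 0.02) and was no longer called without KO replicate 2, WT replicate 2 or WT replicate 3. Among the largest falls, PODXL, a surface sialomucin of stem cells and early epithelium, had 563, 521 and 489 CPM in KO and 1595, 1240.3 and 967 CPM in WT (-1.27, SE 0.12, adjusted p 5.4e-08). HMGA1 (-0.33), HNRNPA2B1 (-0.34), RPS4X (-0.33) and ACTB (-0.22) fell by little. RPS4X lost its call without WT replicate 3, and ACTB without any 1 of the 6 libraries.

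The D4 effect was last set against the KO effect on the other days in the same fit. It differed from that at D0 in 8518 genes (39.1%), 4352 of them more positive at D4 and 4166 more negative, and from that of the libraries labelled KO at D8 in 9037 (41.5%), 4770 and 4267. CD34 had a log2 fold change of 2.44 at D4, against -0.11 at D0 and 0.19 at D8. TRPA1 had 2.34 at D4, against a value near 0 at D0 and -1.08 at D8, and CYP26A1 1.96 at D4, against -1.39 at D0 and -0.62 at D8. These rises were thus seen at D4 and not on the other 2 days, and each difference between days was called. The genes were picked from those with the largest D4 effects, which favours such differences. PCDHB5 was higher on every day (2.76, 2.33 and 2.05 at D0, D4 and D8). VAT1L was -1.95 at D4, against 0.40 at D0 and 0.28 at D8. TFAP2A, CHCHD2 and TTYH1 were lower at D4 and lower still at D8, at -6.89, -6.03 and -4.90.

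**Figure D5:**
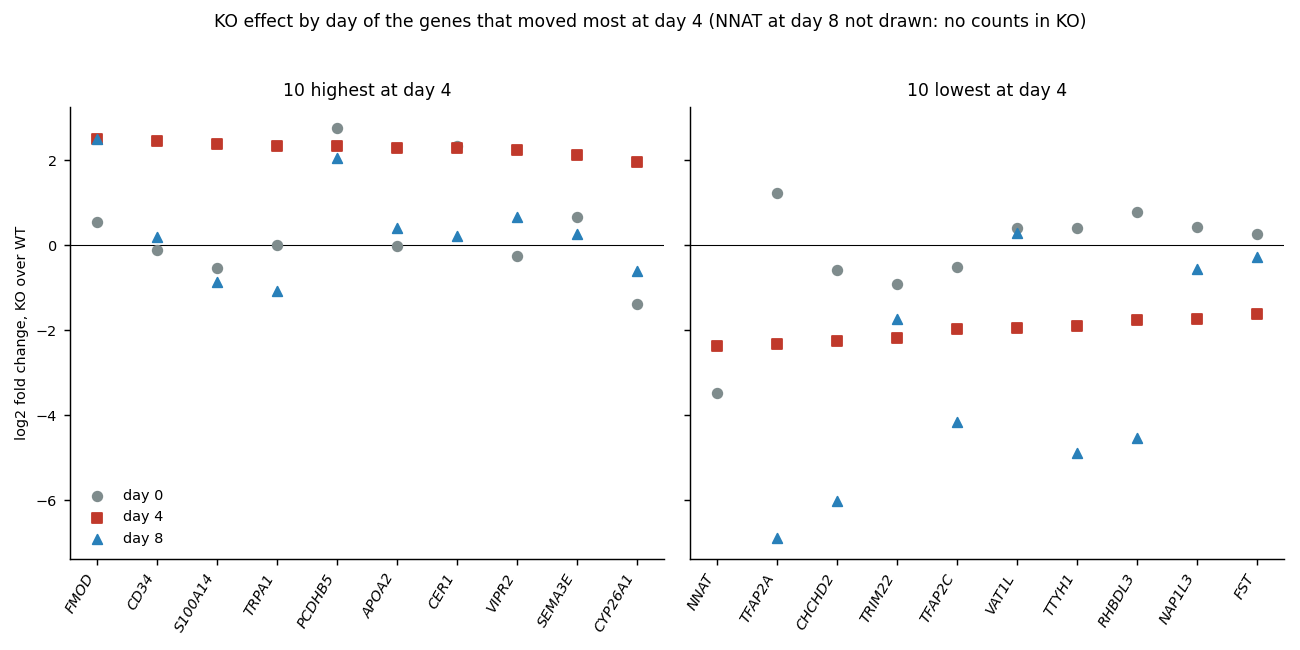
Log2 fold change of KO over WT at D0 (grey circles), D4 (red squares) and D8 (blue triangles, libraries labelled KO) for the 10 highest and 10 lowest named genes at D4. CD34, TRPA1 and CYP26A1 are high at D4 and near or below 0 on the other days. NNAT at D8 is not drawn because KO had no counts there, and the CER1 points of D0 and D4 coincide. The D0 point of APOA2 rests on 7 counts in each genotype, and that of TFAP2A on 10 in KO and 4 in WT.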

How the data were processed

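The authors deposited read counts per gene for 18 whole-cell libraries, with no normalisation, and skipped-exon tables in rMATS format holding junction read counts, inclusion levels (fraction, 0 to 1), p-values and FDR. In the deposited D4 table the first sample is WT and the second KO, and differences are given here as KO minus WT. The deposited difference in inclusion is a score, the first arm minus the second. Per the submitters' processing notes, reads on the build hg19 went through UMI-tools, cutadapt, STAR and featureCounts, and DESeq is also named. For versions, strand setting and annotation release: not given in the sources used here.

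After filterByExpr (21761 genes), edgeR 4.0.16 under R 4.3.3 was run with TMM factors, 1 mean per group over all 18 libraries and the quasi-likelihood test, Benjamini-Hochberg adjusted over all genes, two-sided; differences between days were contrasts of that fit. The biological coefficient of variation was 8.23%. Recomputed inclusion differed from the deposited difference by at most 0.0011. As a second test, limma 3.58.1 was run on logit inclusion (bounded at 0.01). Both fits were also run on simulated data. These had the same spread for every gene and the same read depth for every exon, unlike the real data. Nothing is read from those runs here. Named genes were QKI and the 10 highest and 10 lowest fold changes (called, mean of at least 10 CPM, no overlap). Also named were the 5 largest rises and falls in CPM among called genes that are not mitochondrially encoded. Up to 3 members per direction and list, and the cell type markers, were added. Named exons were the 10 largest gains and losses and called exons of regulated-exon lists. Some genes that these rules name are not reported here. The members, gene lists and motif were chosen with earlier results of these data known. Exon sequences come from GENCODE 29 transcripts, matched by gene, exon length and intron length (44 of 61 named exons), and no coordinates were converted. CPM are not per length, so levels of different genes are not compared.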

Additional observations from a re-analysis of the deposited data

Results flagged for a closer look

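For most of the strongest D4 genes the KO effect differed between days when the difference itself was tested. The test was an edgeR contrast in the fit of 18 libraries, adjusted over all genes. These genes were ranked by their D4 effect, which enters both contrasts, so the choice favours a difference and their number is a description. Over all genes, 39.1% differed from D0 and 41.5% from D8. Values are log2 differences of the effect at D4 minus that at another day. For QKI they were 1.99 from D0 (adjusted p 8.7e-10) and -0.95 from D8 (5.2e-06), where the libraries labelled KO had QKI levels near those of WT.

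Among genes higher at D4, the effect exceeded that at D0 by 1.94 in FMOD, 2.55 in CD34, 2.93 in S100A14, 2.34 in TRPA1, 2.50 in VIPR2, 1.48 in SEMA3E and 3.36 in CYP26A1. It exceeded that at D8 by 2.25 in CD34, 3.25 in S100A14, 3.42 in TRPA1, 1.88 in APOA2, 2.08 in CER1, 1.58 in VIPR2, 1.88 in SEMA3E and 2.58 in CYP26A1. PCDHB5 differed from D0 by only -0.44. APOA2 differed from D0 by 2.31 (SE 0.90, adjusted p 0.048), with 7 counts in each genotype at D0, and this call was lost without single libraries and under total counts.

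Among genes lower at D4, the effect at D4 minus that at D0 was -1.66 in CHCHD2, -1.27 in TRIM22, -1.47 in TFAP2C, -2.35 in VAT1L, -2.30 in TTYH1, -2.53 in RHBDL3, -2.15 in NAP1L3, -1.89 in FST and 1.10 in NNAT. Against D8 it was -2.23 in VAT1L, -1.18 in NAP1L3 and -1.34 in FST, so these 3 were lower at D4 than on either other day. It was positive in TFAP2A (4.56), CHCHD2 (3.78), TFAP2C (2.19), TTYH1 (2.999) and RHBDL3 (2.79), which were lower still in the D8 libraries labelled KO. NNAT gave 10.5 against D8, a fitted value that depends on the prior count because the D8 libraries labelled KO held 0 counts, against 4098 in WT. CHIR dose differed with genotype at D4 and D8 but not at D0, so dose and genotype cannot be told apart in these differences.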

How the results depend on the processing

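With 1 choice changed at a time, the number of genes called at D4 (6171) ran from 4874 to 5524 when 1 library was left out and from 5892 to 6939 over the other alternatives. Genes changed at least 2-fold (1235) ran from 1096 to 1294 and from 898 to 1338. Genes whose KO effect differed from D0 (8518) ran from 7515 to 8151 without 1 library, and those that differed from D8 (9037) from 7942 to 9389. Correlations of same-numbered deviations were 0.083, 0.119 and -0.005, against -0.219 to 0.145 for KO and WT libraries with different numbers. This weak check showed no pairing by replicate number. A fit with the replicate number as a block called 6172. The skipped-exon count of 647 was 606 to 640 without 1 library, 320 at a difference of at least 0.2, 1014 with no read minimum, 72 with limma over all events and 161 with limma over events of mean inclusion 0.05 to 0.95, a setting chosen after seeing the data. Of those 72 and 161, the authors' calls shared 67 and 138. Of 194 genes named by the rule, 33 lost their call without at least 1 library, 11 under total counts and 1 under the block. Uncalled GATA1 ran from -0.080 (without WT replicate 1) to 0.24 on the log2 scale without 1 library, NANOG from -0.17 to 0.25 and TNNT2 from -0.15 to 0.57, the lowest of both without KO replicate 1. Each genotype has 3 libraries, and the cause of these differences was not tested.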
